A study of Mus musculus with 6 samples.

Results

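The FK506-binding proteins are a family built around a domain that binds the immunosuppressants FK506 and rapamycin, and a modified copy of that domain is what the synthetic ligand Shld1 binds. The family was taken as 10 named mouse genes, Fkbp1a, Fkbp1b, Fkbp2, Fkbp3, Fkbp4, Fkbp5, Fkbp7, Fkbp8, Fkbp9 and Fkbp10. Their probe sets were found through the symbols of the array's annotation. Of these 10, 9 had a probe set with their symbol, 1 each, among 19938 genes in all; Fkbp10 was not analysed here. The 10 genes were taken by family membership and not by a cut on measured values, but earlier results of these data were known.

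Expression was read on 6 single-colour Affymetrix arrays of RW4, a mouse embryonic stem cell line. Of these, 2 arrays came from cells given 1 µM 4-hydroxytamoxifen (4OHT), 2 from cells given 1 µM Shld1 and 2 from cells with no drug. Cells of all groups grew on gelatin in medium with serum, added nucleosides and leukemia inhibitory factor, which keeps them undifferentiated. The labels give the induction system as ERT2 for the 4OHT samples, FKBP for the Shld1 samples and WT for the untreated ones. They do not say whether any of the cells carried an ERT2 or FKBP fusion, so a construct and its drug cannot be told apart. How long the drugs were applied is not stated in the labels. Arrays of a group are called duplicates, with no word on separate cultures, so the spread behind the p-values may be only technical.

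Most FK506-binding proteins are peptidyl-prolyl isomerases, enzymes that turn the bond before a proline in a folding protein. Small members are little more than the ligand-binding domain, whereas the larger ones add tetratricopeptide repeats that dock on the chaperone Hsp90, or a signal peptide that sends them to the endoplasmic reticulum. In complex with FK506 the founding member, FKBP12, blocks the phosphatase calcineurin, and in complex with rapamycin it blocks the kinase mTOR. Shld1 carries a bulky group that fits a version of this domain with an enlarged pocket, which lets it stabilise proteins fused to a destabilised form of the domain. 4OHT binds the estrogen receptor and its mutated domain ERT2; unliganded steroid receptors are held by Hsp90 together with Fkbp4 or Fkbp5.

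Values are log2 signals as deposited, so a difference of 1 is a change of 2-fold. Levels of different genes are not compared, since each comes from its own probe set. The background level was 3.71, the 95th percentile of the mean signal of 1027 olfactory receptor genes, and 12841 of the 19938 genes lay above it. All 11 stem cell markers listed, Pou5f1, Sox2 and Nanog among them, were above it on all 6 arrays. Array medians over all probe sets ran from 4.20 to 4.32. The signals spread least on 4OHT replicate 1 and Shld1 replicate 2, where the SD over all probe sets was 2.29 and 2.24; on the other 4 arrays it was 2.33 to 2.35. Since RNA was measured in bulk, fewer expressing cells and less RNA per cell cannot be told apart.

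The promoters of 2 members are shown because the results turn on these genes: Fkbp7 had the largest differences of the family, and Fkbp1a encodes FKBP12. The sequences are the 250 bases before the gene's start in RefSeq (build GRCm38.p6), 5′ to 3′ along the gene. Fkbp7 lies at chr2:76673099-76673348 on the minus strand and Fkbp1a at chr2:151542233-151542482 on the plus strand. Capitals in Fkbp7 mark a match to the glucocorticoid response element and, further on, a GC box.
Fkbp7: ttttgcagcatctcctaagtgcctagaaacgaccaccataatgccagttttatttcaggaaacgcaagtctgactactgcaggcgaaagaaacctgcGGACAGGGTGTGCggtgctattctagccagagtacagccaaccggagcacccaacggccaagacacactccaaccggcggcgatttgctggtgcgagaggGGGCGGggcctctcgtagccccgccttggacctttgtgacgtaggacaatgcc
Fkbp1a: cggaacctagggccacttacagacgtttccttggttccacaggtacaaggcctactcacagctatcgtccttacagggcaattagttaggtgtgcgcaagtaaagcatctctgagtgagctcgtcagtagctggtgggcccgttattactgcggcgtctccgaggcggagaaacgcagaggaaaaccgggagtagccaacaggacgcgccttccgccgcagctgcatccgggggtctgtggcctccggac

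RefSeq promoters were found for all 9 measured members, and both strands of the same 250 bases were searched for 6 motifs. The glucocorticoid response element, searched as GNACANNNTGTNC, was in the promoter of 1 member, Fkbp7, from 153 to 141 bases before the start, and in 0.387% of all 32851 promoters. The estrogen response element GGTCANNNTGACC was in no member's promoter and in 0.0639% of all promoters. The endoplasmic reticulum stress element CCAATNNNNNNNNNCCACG was likewise in none and in 0.113% of all; it overlaps the CCAAT box by construction. A GC box (GGGCGG) was in the promoters of 7 members, not those of Fkbp1a and Fkbp9, and in 32.7% of all. Of the 9 members 8 had 1 promoter, and the counts are per member while the shares are per promoter. G and C made up 56.4% to 72.8% of the members' promoters, against a median of 52.4% over all promoters. A CCAAT box was in those of Fkbp2, Fkbp4, Fkbp5 and Fkbp8 and in 33.8% of all, and TATAAA in none of the members' and 12.4% of all. These matches are descriptions of the letters, not sites of binding.

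The first question is whether 4OHT, used as an inducer of ERT2 fusions, altered the family. With 4OHT, 7 of the 9 members had a lower mean than in untreated cells (6 of 9 after quantile or cyclic loess normalization), and Fkbp7, a chaperone of the endoplasmic reticulum, had the largest difference, -0.58 on the log2 scale. No member passed limma's test after Benjamini-Hochberg adjustment over all genes (0 of 9, beside 0% of all genes). At an unadjusted p under 0.05 there was 1 of 9, Fkbp7, against 4.99% of all genes, of which 2.42% were lower and 2.57% higher with 4OHT. The members' median difference was -0.13, against -0.01 over all genes, of which 52.2% were below 0. It was -0.07 after quantile or cyclic loess normalization, and it ran from -0.18 without untreated replicate 2 to -0.07 without untreated replicate 1; without 4OHT replicate 1 it was -0.08. The arrays of these groups lay apart at 5 of 9 members, against 37.7% of all genes. In all 5 both 4OHT arrays lay below both untreated arrays, which was so for 20.4% of all genes. No member had both 4OHT arrays above both untreated arrays, against 17.3% of all genes.

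Among the small cytosolic members, the groups overlapped or lay close together. Fkbp1a encodes FKBP12 itself. It was at 7.98 and 7.89 on the 4OHT arrays, at 7.97 and 7.76 on the Shld1 arrays, and at 7.87 and 7.94 on the untreated arrays. All 3 groups overlapped, and the lowest array was Shld1 replicate 2. The difference of 4OHT from untreated was 0.03 (SE 0.14, 95% interval -0.30 to 0.35; limma, adjusted p = 0.996). The mouse gene table lists 4 pseudogenes of Fkbp1a, and whether they add to the signal of its probe set was not tested.

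Fkbp1b encodes FKBP12.6, the close relative of FKBP12 known for binding the cardiac ryanodine receptor. Its signals were 5.29 and 5.34 with 4OHT, 5.40 and 5.30 with Shld1, and 5.53 and 5.38 without drug. Both 4OHT arrays lay below both untreated arrays, by a margin smaller than the gap between the untreated arrays. The difference was -0.14 (SE 0.14, 95% interval -0.45 to 0.18; adjusted p = 0.964). Fkbp3 encodes the nuclear member FKBP25, which binds nucleic acids. It was at 9.98 and 10.19 with 4OHT, at 10.12 and 10.13 with Shld1, and at 10.11 and 10.02 without drug. Its range over the 6 arrays, 0.20, was the narrowest of the family, and the 4OHT arrays spanned all the others.

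The members with tetratricopeptide repeats, Fkbp4, Fkbp5 and Fkbp8, all had a lower mean with 4OHT than in untreated cells, and none passed. Fkbp4 encodes FKBP52, the Hsp90 cochaperone that favours steroid receptor activity. Its signals were 8.97 and 9.12 with 4OHT, 9.27 and 9.12 with Shld1, and 9.21 and 9.27 without drug. The 4OHT arrays were both below the untreated ones, while the Shld1 arrays overlapped them. The difference of 4OHT from untreated was -0.19 (SE 0.14, 95% interval -0.51 to 0.13; adjusted p = 0.961).

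Fkbp5 encodes FKBP51, which acts against FKBP52 at steroid receptors and is a known target gene of the glucocorticoid receptor. It was at 6.06 and 6.70 with 4OHT, at 6.68 and 6.54 with Shld1, and at 6.59 and 6.68 without drug. The 4OHT arrays were its lowest and its highest array, 0.65 apart, against 0.09 between the untreated arrays. The difference of -0.26 (SE 0.20, 95% interval -0.71 to 0.20; adjusted p = 0.961) rested on 4OHT replicate 1, and without that array it was 0.07. Fkbp8 encodes FKBP38, a member anchored in the mitochondrial outer membrane that binds Bcl-2. It was at 6.83 and 6.68 with 4OHT, 6.96 and 6.83 with Shld1, and 6.837 and 6.836 without drug, a difference of 4OHT from untreated of -0.08 (SE 0.14).

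Of the 3 measured members of the endoplasmic reticulum, Fkbp7 stood lower on the 4OHT arrays than on every other array. Fkbp7, also known as FKBP23, binds the chaperone BiP. Its signals were 3.62 and 3.79 with 4OHT, 4.40 and 4.05 with Shld1, and 4.30 and 4.27 without drug. Both 4OHT arrays were below all 4 others. The share of all genes with that order was not computed. The 4OHT arrays straddled the background level of 3.71, with 1 of the 2 above it. The size of any drop below that level cannot be read from these arrays, so no fold is given. The difference between the measured means, with 4OHT minus untreated, was -0.58 (SE 0.16). In limma 77 genes had a smaller p, and after adjustment Fkbp7 did not pass (adjusted p = 0.96, unadjusted p = 0.00494). Without 4OHT replicate 1, the array of narrower range, it was -0.50, and over the 17 other settings tried it ran from -0.66 to -0.50 (adjusted p from 0.608 to 1).

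Fkbp2 encodes FKBP13, a small isomerase of the endoplasmic reticulum. It was at 8.36 and 8.46 with 4OHT, at 8.53 and 8.18 with Shld1, and at 8.59 and 8.48 without drug. Both 4OHT arrays lay just below both untreated arrays, and Shld1 replicate 2 was the lowest of all. The difference of 4OHT from untreated was -0.13 (SE 0.16). Fkbp9 encodes FKBP63, an endoplasmic reticulum member with several isomerase domains. Its signals were 6.56 and 7.13 with 4OHT, 6.84 and 6.82 with Shld1, and 7.03 and 6.76 without drug. As for Fkbp5, the 4OHT arrays were its lowest and its highest array, and its difference of -0.05 (SE 0.20) was 0.24 without 4OHT replicate 1.

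**Figure D1:**
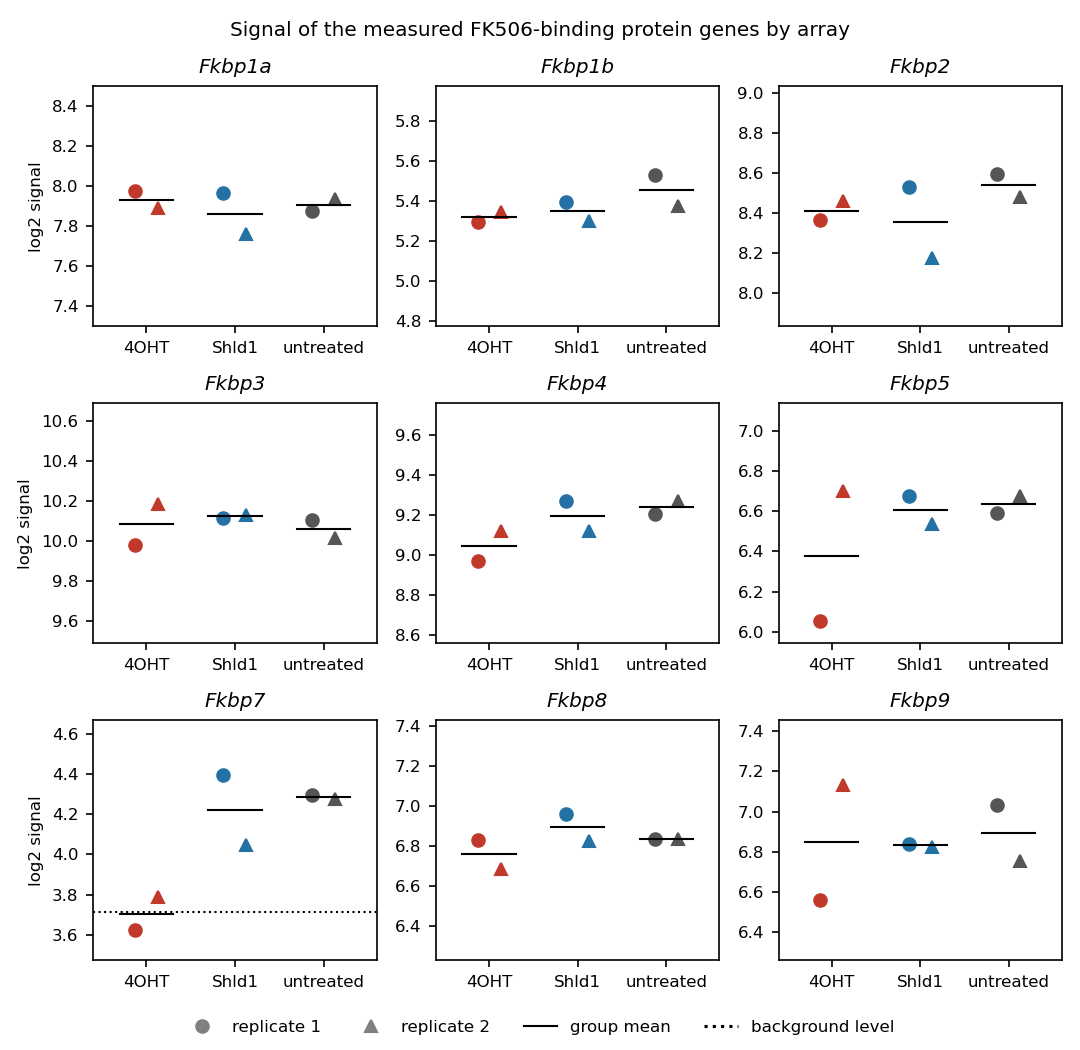
Log2 signal (vertical axis) of each of the 9 measured family genes in 4OHT, Shld1 and untreated cells (horizontal axis), with circles for replicate 1, triangles for replicate 2, a line for each group mean and the same span of log2 units on every panel. In Fkbp7 both 4OHT arrays, at 3.62 and 3.79, lie below the other 4 and beside the dotted background level of 3.71, while in Fkbp5 and Fkbp9 the 4OHT arrays are the lowest and the highest of the 6.

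The second question is whether Shld1, the ligand of the modified FKBP12 domain, altered the genes of the natural family. The groups were close at every member: differences ran from -0.18 at Fkbp2 (SE 0.16) to 0.06 at Fkbp3 (SE 0.14), and the median was -0.05, against -0.004 over all genes. No member passed (0 of 9, beside 0% of all genes; smallest adjusted p among them 0.9995, limma), and 0 of 9 had an unadjusted p under 0.05, against 4.34% of all genes (1.94% lower and 2.41% higher with Shld1). A lower mean with Shld1 was found at 7 of 9 members, against 51.1% of all genes; it was found at 5 of 9 after quantile and 4 of 9 after cyclic loess normalization. Shld1 and untreated arrays lay apart at 1 of 9 members, Fkbp3, where the Shld1 arrays were higher. They lay apart in either direction for 32.5% of all genes, with the Shld1 arrays higher for 15.2% and lower for 17.3%.

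For Fkbp1a, the difference of Shld1 from untreated was -0.04 (SE 0.14; adjusted p = 0.9995). Its 95% interval, from 0.775-fold to 1.22-fold, holds no change as large as 1.5-fold in either direction. The same held for all 9 members with Shld1, against 14822 of all 19938 genes. Fkbp7, at -0.06 (SE 0.16), had a Shld1 mean of 4.22 ± 0.25, against an untreated mean of 4.29 ± 0.02 (SD, n = 2 each). Fkbp1b differed by -0.10 (SE 0.14), Fkbp9 by -0.06 (SE 0.20), Fkbp4 by -0.05 (SE 0.14), Fkbp5 by -0.03 (SE 0.20) and Fkbp8 by 0.06 (SE 0.14). Without Shld1 replicate 2, whose signals spread least, the members' median turned to 0.04.

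The third comparison set the drugs against each other at 1 µM. Fkbp7 again had the largest difference, at 3.70 ± 0.12 with 4OHT and 4.22 ± 0.25 with Shld1 (SD, n = 2 each), and both 4OHT arrays lay below both Shld1 arrays. The difference was -0.52 (SE 0.16, 95% interval -0.88 to -0.16; limma, adjusted p = 0.871; unadjusted p = 0.00953). It was -0.34 without Shld1 replicate 1 and -0.69 without Shld1 replicate 2. This comparison and that of 4OHT with untreated share the 4OHT arrays, so the 2 Fkbp7 differences are not independent.

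No member passed in 4OHT against Shld1 (0 of 9, beside 0% of all genes), and 1 of 9 had an unadjusted p under 0.05, against 5.6% of all genes (3.1% lower and 2.5% higher with 4OHT). The 4OHT and Shld1 arrays lay apart at 1 of 9 members, against 30.5% of all genes; at that member, Fkbp7, the 4OHT arrays were the lower ones, as for 15.6% of all genes. A mean lower with 4OHT than with Shld1 was found at 6 of 9 members, against 50.9% of all genes. The members' median difference was -0.04, against -0.004 over all genes. Fkbp5 differed by -0.23 (SE 0.20), Fkbp4 by -0.15 (SE 0.14) and Fkbp8 by -0.13 (SE 0.14). At the other 5 members the difference lay between -0.04 and 0.07. For 7 of the 9 members the 95% interval lay within 1.5-fold in either direction, against 14271 of all 19938 genes. In 4OHT against untreated it also did so for 7 of 9, against 14378 of all genes. Fkbp5 and Fkbp7 were the exceptions in both. At the 8 members other than Fkbp7, whose 4OHT level was at background, the intervals lay within 2-fold in each of the 3 comparisons. Among all genes this held for 19706 in 4OHT against untreated, 19684 in Shld1 against untreated and 19647 in 4OHT against Shld1.

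**Figure D2:**
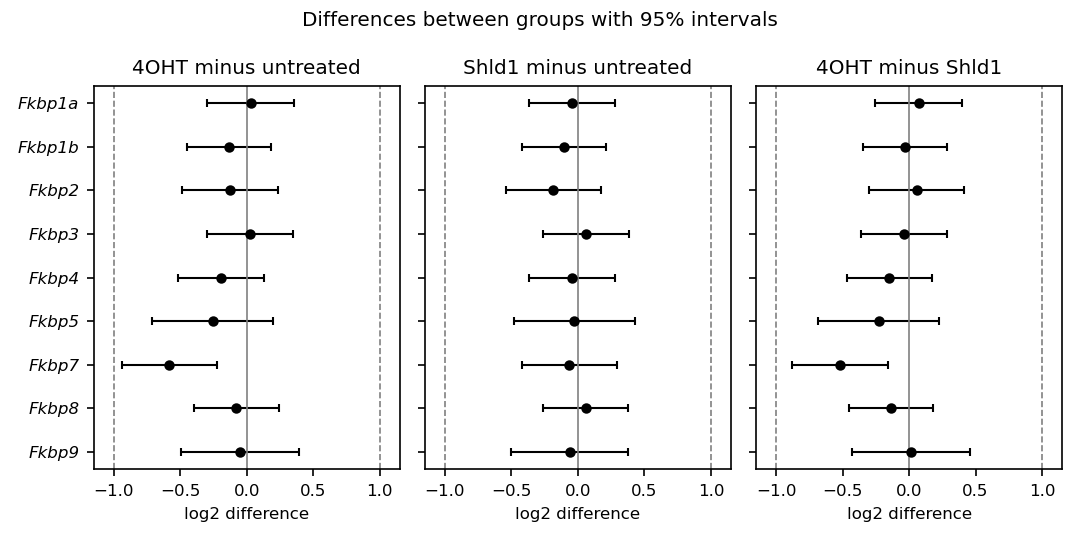
Log2 difference between groups (horizontal axis) for each measured member (vertical axis) in the 3 comparisons, as points with 95% intervals from limma; dashed lines mark 2-fold. The intervals of Fkbp7 with 4OHT, -0.94 to -0.22 against untreated and -0.88 to -0.16 against Shld1, do not reach 0, and all the others do; each interval is that of a single gene, without adjustment.

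The order of the group means varied across the family. Untreated cells had the highest mean at 6 of 9 members, Shld1 at Fkbp3 and Fkbp8, and 4OHT at Fkbp1a. Cells with 4OHT had the lowest mean at 5 members (Fkbp1b, Fkbp4, Fkbp5, Fkbp7 and Fkbp8), and cells with Shld1 at Fkbp1a, Fkbp2 and Fkbp9. Between neighbours in these orders the 95% interval of the difference held 0 at every member but Fkbp7, where it did not for 4OHT against Shld1.

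A single array held many of the low values. On 4OHT replicate 1, 6 of the 9 members had their lowest signal. The share of all genes with their lowest signal on that array was not computed. Relative to the untreated mean, the members averaged -0.24 on 4OHT replicate 1, against -0.06 on 4OHT replicate 2. On the Shld1 arrays the average was 0.03 on replicate 1 and -0.125 on replicate 2, which held the lowest signal of Fkbp1a and Fkbp2. The means on the arrays of narrower range, 4OHT replicate 1 and Shld1 replicate 2, were thus the lowest of the 6. The part of that narrower range in the members' differences was not tested. With both arrays left out, the Fkbp7 difference between 4OHT, then a single array, and untreated cells was -0.50 (limma, adjusted p = 0.826). The median gap between the arrays of a group was 0.15 for 4OHT, 0.14 for Shld1 and 0.09 for untreated cells.

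**Figure D3:**
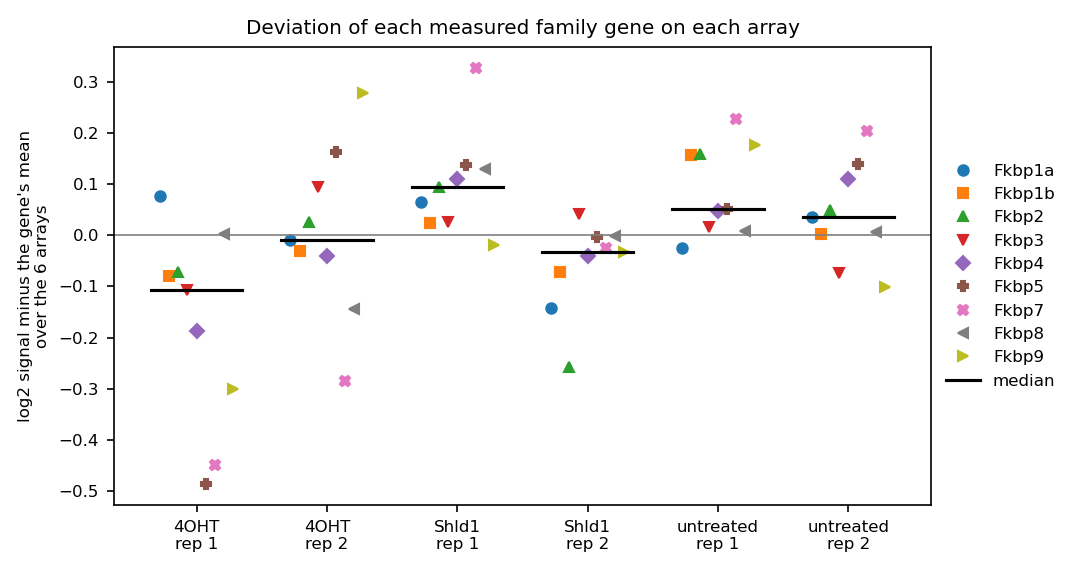
Log2 signal of each measured member minus its mean over the 6 arrays (vertical axis), for each array (horizontal axis), with a black line at the median of the 9 genes. The median is -0.11 on 4OHT replicate 1, the lowest of the 6, and Fkbp5 and Fkbp7 lie furthest below 0 there, while on 4OHT replicate 2 the median is -0.01 with Fkbp7 still at -0.28.

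Other genes of the family were measured for 5 of 7 listed: Fkbp11, Fkbp14, Fkbp15, Fkbpl and Aipl1. None passed in any comparison, and 0 of 5 had an unadjusted p under 0.05 in each. Fkbpl, a divergent member that binds Hsp90, was at 5.43 and 5.59 with 4OHT, at 5.52 and 4.76 with Shld1, and at 5.32 and 5.05 without drug. Both 4OHT arrays were above the untreated ones, a difference of 0.33 (SE 0.23), while the Shld1 arrays lay widely apart. Fkbp11 and Fkbp14, both of the endoplasmic reticulum like Fkbp7, differed with 4OHT by -0.20 (SE 0.15) and -0.16 (SE 0.20) and with Shld1 by -0.19 (SE 0.15) and -0.25 (SE 0.20). Shld1 replicate 2 was the lowest array for both. Fkbp15, which associates with the actin cytoskeleton, differed by -0.03 with 4OHT and by 0.03 with Shld1, and Aipl1, known from photoreceptors, was below background on all 6 arrays.

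Fkbp4 and Fkbp5 work with Hsp90 on steroid receptors. Of 15 measured genes of Hsp90, its cochaperones and the steroid receptors, none passed and 0 had an unadjusted p under 0.05 in any comparison, with medians of -0.01 for 4OHT and -0.06 for Shld1, both against untreated; the first was 0.01 after quantile or cyclic loess normalization. Of 10 glucocorticoid target genes, 9 were lower with 4OHT (8 after cyclic loess normalization or centring), with a median of -0.14, and 0 passed. Over all genes, 52.2% were lower. Of the 9, Zbtb16 was below background on all 6 arrays, with nearly equal means with 4OHT and without drug. Cebpd, the target that was higher with 4OHT, was above background on 1 of 6 arrays. Whether glucocorticoid signalling had a part in these differences was not tested. Ddit4, an inhibitor of mTORC1 signalling, had the smallest p among the 10 targets (-0.53, SE 0.14, limma, adjusted p = 0.96). It was followed by Tsc22d3, which encodes the glucocorticoid-induced leucine zipper protein (-0.28, SE 0.14). With Shld1 the list had a median of -0.04 (0.02 without both arrays of narrower range), with Per1, a gene of the circadian clock, at -0.38 (SE 0.16).

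The targets of drug-bound FKBP12 were set beside it. Of 12 measured genes of the mTOR complexes and their regulators, 10 were lower with 4OHT (9 after quantile or cyclic loess normalization), with a median of -0.13, and 9 with Shld1, with a median of -0.12; none passed. Mlst8, a subunit shared by both mTOR complexes, differed with 4OHT by -0.33 (SE 0.15; adjusted p = 0.96), and Prr5l was below background in all groups. Over all genes, 52.2% were lower with 4OHT and 51.1% with Shld1. Calcineurin subunits were lower with 4OHT at 5 of 5 genes (median -0.14), and none passed. With Shld1, 4 of 5 were lower (median -0.12), or 3 of 5 with centring on the 75th percentile, and none passed. Of these subunits, Ppp3r2 was below background on all 6 arrays. The catalytic subunit gene Ppp3ca had the smallest p of the 5 with Shld1 (-0.41, SE 0.14, limma, adjusted p = 0.9995). Relative to the untreated mean, the mTOR list averaged -0.21 and -0.10 with 4OHT, and -0.06 and -0.16 with Shld1, so the arrays of narrower range were the lower ones here too.

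Fkbp7, Fkbp9 and Fkbp10 belong to the folding machinery of the endoplasmic reticulum, which in fibroblasts serves collagen above all. Of 15 genes of collagen folding in that compartment, 8 were lower with 4OHT (median -0.01, and 0.03 with centring on the 75th percentile), 10 were lower with Shld1 (median -0.12, and -0.07 after quantile normalization), and none passed. Among all genes, 52.2% were lower with 4OHT and 51.1% with Shld1. Without both arrays of narrower range, 4 of the 15 were lower with 4OHT (median 0.07) and 8 with Shld1 (median -0.01). P4ha1 encodes a catalytic subunit of collagen prolyl 4-hydroxylase. Its signals were 5.37 and 5.97 with 4OHT, 5.96 and 5.88 with Shld1, and 6.14 and 6.34 without drug. The arrays of both drugs thus lay below both untreated arrays. The difference from untreated was -0.57 with 4OHT (SE 0.20, limma, adjusted p = 0.96) and -0.33 with Shld1 (SE 0.20). P3h1, which modifies prolines of collagen, differed from untreated by 0.18 with 4OHT (SE 0.16). None of 10 fibroblast markers passed in any comparison, and their summed log2 signal was 45.1 and 44.0 with 4OHT, 44.2 and 44.5 with Shld1, and 44.7 and 44.1 without drug. Of those 10, Postn, Lum, Dcn and Prrx1 were below background on all 6 arrays, and Col1a1, Col1a2, Col3a1, Thy1 and Fn1 were above it on all 6. The 4OHT and Shld1 arrays lay apart at 6 of the 10, with 4OHT higher at 4 and lower at 2, against 30.5% of all genes. Twist1, a transcription factor of mesenchymal cells, had the smallest p there (-0.42, SE 0.16; limma, adjusted p = 0.871).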

How the data were processed

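The authors deposited 1 table of log2 signal values, with 35556 probe sets on 6 arrays; the log2 scale was read from the values. The sources used here do not give how the authors corrected background, summarized or normalized; limma 3.14 is named in the submitters' processing notes, with no role. Values were used as deposited.

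Probe sets with exactly 1 symbol in the platform annotation (21789) were named, 21698 through a current Entrez record, and the brightest per gene was kept, giving 19938 genes. limma 3.58.1 in R 4.3.3 fitted a mean per group over all 6 arrays, with empirical Bayes moderation without a trend, two-sided tests and Benjamini-Hochberg adjustment over all genes (threshold 0.05). The fit had 3 residual degrees of freedom and a prior of 6.77. The median SE of a difference was 0.16, and 2 arrays per group limit the precision. An exact permutation test of 2 arrays against 2 was not used, because it cannot pass the threshold. The fit was tested on simulated data.

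Members and gene lists were chosen with earlier results of these data known. All members and other family genes are named, and from each further list up to 3 genes with the smallest p per comparison. Listed genes without a probe set of their symbol alone, Fkbp10 and Fkbp6 among them, were not analysed here, and some items are not reported here. Alternatives were other moderation, normalization, centring, filtering, probe set averaging, array weights, fitting only the groups compared, a replicate block, and leaving arrays out. Promoters came from RefSeq, and plots were drawn with matplotlib 3.10.9.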

Additional observations from a re-analysis of the deposited data

How the results depend on the processing

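No member passed under any of 17 other settings. Genes called numbered 0 in each comparison throughout, except 1 in 4OHT against Shld1 with an intensity trend in the moderation: Snora62, a small nucleolar RNA gene and no member, named after its values were seen (1.31, limma, adjusted p = 0.0304). Changes of moderation, filtering, probe set averaging, array weights, groups fitted and replicate block left the members' differences as they were. A direction could therefore change only with normalization, centring or leaving out an array of the groups compared. Under all settings Fkbp4, Fkbp7 and Fkbp8 kept their direction in 4OHT against untreated and against Shld1. Fkbp1b and Fkbp2 did so in both comparisons with untreated, and Fkbp3 in Shld1 against untreated. The other members' differences changed sign in places, none of them past the test, and the cause was not tested. In 4OHT against untreated, Fkbp9 was 0.0088 after quantile and 0.0171 after cyclic loess normalization. In Shld1 against untreated, Fkbp4 was 0.0032 and Fkbp5 0.0107 after quantile normalization; after cyclic loess they were 0.0056 and 0.0136, and Fkbp1a 0.015; Fkbp5 was 0.006 with centring on the 75th percentile. With 4OHT replicate 1 and Shld1 replicate 2 left out together, Fkbp1a was -0.0151, Fkbp5 0.0674 and Fkbp9 0.2403 in 4OHT against untreated. In Shld1 against untreated, that setting gave Fkbp1a 0.0605, Fkbp4 0.0303, Fkbp5 0.0416, Fkbp7 0.1116 and a members' median of 0.0416. In 4OHT against Shld1 it gave Fkbp1a -0.0756, Fkbp2 -0.0699, Fkbp3 0.0685 and Fkbp5 0.0258.

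With each array left out in turn, the differences of 4OHT from untreated ran from -0.0151 to 0.0712 for Fkbp1a, from -0.0778 to 0.1237 for Fkbp3, from -0.5808 to 0.0674 for Fkbp5 and from -0.3375 to 0.2403 for Fkbp9. Those of Shld1 from untreated ran from -0.1461 to 0.0605 for Fkbp1a, from -0.1204 to 0.0303 for Fkbp4, from -0.0978 to 0.0416 for Fkbp5, from -0.2393 to 0.1116 for Fkbp7, from -0.0087 to 0.1226 for Fkbp8, from -0.2026 to 0.0758 for Fkbp9, and from -0.1204 to 0.0416 for the members' median. Those of 4OHT from Shld1 ran from -0.0324 to 0.1741 for Fkbp1a, from -0.0788 to 0.0173 for Fkbp1b, from -0.118 to 0.2333 for Fkbp2, from -0.1408 to 0.0607 for Fkbp3, from -0.5528 to 0.0955 for Fkbp5, from -0.2742 to 0.3037 for Fkbp9, and from -0.1408 to 0.0277 for the median. A group left with 1 array is assumed to vary like the others. Genes at an unadjusted p under 0.05 numbered 995, 866 and 1117 in the 3 comparisons, and over the settings that tested all genes 518 to 1634 for 4OHT against untreated, 481 to 2680 for Shld1 against untreated and 707 to 2270 for 4OHT against Shld1. With the dimmest genes left out, 11963 were tested, and the counts were 703, 469 and 765. The highest counts came without 4OHT replicate 2 in the first comparison and without Shld1 replicate 1 in the other two. Without untreated replicate 1 or 2 the counts were 564 and 518 in the first and 545 and 481 in the second, and without 4OHT replicate 1 they were 522 in the first and 707 in the last.

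The labels number the arrays of each group 1 and 2, without saying that a number marks a shared batch. Deviations of same-numbered arrays correlated across genes at -0.19 between 4OHT and Shld1 and 0.05 between 4OHT and untreated. Between Shld1 and untreated the value was -0.08. With 1 pair of arrays per group, these values cannot tell whether any arrays shared a batch or culture. With the array number as a replicate block, genes called stayed at 0 in each comparison. Fkbp7 was then at -0.58 in 4OHT against untreated (limma, adjusted p = 0.9997).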

Other observations

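Cyclophilins are the isomerase family that binds cyclosporin, as the FK506-binding proteins bind FK506. All 16 listed were measured and none passed in any comparison (limma). In 4OHT against untreated their median was -0.05 with 10 lower, and in Shld1 against untreated -0.05 with 13 lower. Among all genes, 52.2% and 51.1% were lower. After cyclic loess normalization the cyclophilin counts were 9 and 7, and their Shld1 median was 0.01. Nktr, a nuclear cyclophilin, had the smallest p with Shld1 (-0.44, SE 0.16; adjusted p = 0.9995).

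FKBP12 also binds type I receptors of the TGF-beta family and the calcium release channels. None of 7 such receptors and 5 such channels passed in any comparison. Bmpr1a, a receptor for bone morphogenetic proteins, was at 6.27 with Shld1 and 6.70 without drug on average, a difference of -0.43 (SE 0.16; limma, adjusted p = 0.9995), and at 6.74 with 4OHT. The difference of 4OHT from Shld1 was 0.47 (SE 0.16; limma, adjusted p = 0.871).

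Markers of other lineages did not pass (0 of 8 endoderm, 7 trophoblast, 5 mesoderm, 6 neural and 10 fibroblast genes in each comparison; limma, adjusted). Msgn1, a transcription factor of presomitic mesoderm, was at 4.92 and 4.89 with 4OHT, at 4.65 and 4.12 with Shld1, and at 4.19 and 4.31 without drug. Its 4OHT arrays were above the other 4. The share of all genes with that order was not computed. Msgn1 differed from untreated by 0.65 with 4OHT (SE 0.18, limma, adjusted p = 0.96, unadjusted p = 0.00523), with 78 genes at a smaller p, against 77 for Fkbp7. Of the 5 mesoderm genes, 2 were higher and 3 lower with 4OHT than in untreated cells (median -0.002). At an unadjusted p under 0.05 (limma) in 4OHT against untreated were also the neural genes Tubb3 (-0.40, SE 0.16) and Neurog2 (0.45, SE 0.18). Neurog2 had 1 of 6 arrays above background. The stem cell marker Fgf4 was there too (-0.43, SE 0.17). Of the 11 stem cell markers, 6 were higher and 5 lower with 4OHT (median 0.01), and 10 were higher after cyclic loess normalization. Eomes, listed for trophoblast, was the marker of other lineages at that threshold with Shld1 against untreated (-0.39, SE 0.15; adjusted p = 0.9995). The part of these markers in the differences of the family was not tested.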
